A study of Mus musculus with 13 samples.

Results

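The genes described here are cytochrome P450 genes of a set of named families, measured in the livers of female mice. They were taken by their gene names on the array: the families Cyp2a, Cyp2d, Cyp2e, Cyp2f, Cyp2g, Cyp2j, Cyp2r, Cyp2s, Cyp2t, Cyp2u, Cyp2w and Cyp2ab, the pair Cyp4a12a and Cyp4a12b, the families Cyp4b, Cyp4f, Cyp4v and Cyp4x, and the genes Cyp20a1, Cyp24a1, Cyp26b1, Cyp27b1 and Cyp46a1. The rule itself uses names and no measured value, but it was set with earlier results of these data known. It gave 49 of the 98 cytochrome P450 genes on the array, with 61 of its 39429 probes. Liver RNA of C57BL6 females aged 12 weeks had been hybridized to 13 single-colour arrays on 5 slides. The diet labelled HFHS had been given together with vehicle to the mice of 5 samples. The standard diet, labelled ST, had been given together with vehicle to those of 3 samples and together with a mixture of 4 pollutants to those of 5. The labels call the samples of a group biological replicates. Neither the composition of the diets nor the names of the pollutants is given in the sources used here, and the wording of the series leaves room to place the mixture in the HFHS diet, so the groups here are those of the sample labels.

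Cytochrome P450 enzymes are heme proteins, most of them in the endoplasmic reticulum, that insert an oxygen atom into steroids, fatty acids, vitamins and foreign compounds. Those of the endoplasmic reticulum take their electrons mainly from NADPH-cytochrome P450 reductase, encoded by Por. The heme of P450 enzymes comes from a pathway whose rate-limiting step in liver is catalysed by the Alas1 product. The genes described here cover several roles. The Cyp2a, Cyp2d, Cyp2e and Cyp2f enzymes act on steroids and on small foreign molecules, the Cyp2j, Cyp2u, Cyp4a12, Cyp4f and Cyp4v enzymes on arachidonic acid and other fatty acids, and the Cyp2r1, Cyp27b1 and Cyp24a1 enzymes on vitamin D, while Cyp26b1 hydroxylates retinoic acid and Cyp46a1 cholesterol. In mouse liver many genes of these families differ between the sexes under the control of growth hormone, and many P450 genes lie in tandem clusters of close relatives.

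Of the 49 genes, 42 were tested, those with a probe that 1 group or more had well above background throughout its arrays, and 38 of these were above background on all 13 arrays. The other 4 tested genes were dim on some arrays. Cyp27b1 was above background on 4 of 5 HFHS arrays, 3 of 3 ST vehicle arrays and 4 of 5 pollutant arrays, Cyp2w1 and Cyp4f39 on 5, 3 and 4, and Cyp4f40 on 4, 3 and 2. Cyp27b1 and Cyp4f40 were thus kept through the 3 ST vehicle arrays alone. Their mean level was highest in that group, so their differences from it are not independent of the filter. Among the 7 genes that were not tested, Cyp24a1 was above background on 2 HFHS and 2 pollutant arrays, Cyp2j11 on 1 pollutant array, the pseudogene Cyp4b1-ps2 on 1 HFHS and 2 pollutant arrays and Cyp4f41-ps on 1 HFHS array. Cyp2ab1, Cyp4f37 and Cyp4x1 were not well above background on any array. No probe of these genes was saturated. Levels are given as log2 intensity minus the 75th percentile of the same array, so that a level of 0 is the signal of that percentile, and they are compared between arrays only, not between probes. The 75th percentile lay between 782 and 1354 intensity units, and between 62.8% and 69.5% of all probes were well above background.

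Some arrays stood apart in transcripts that matter for these genes, and the Y-linked and kidney transcripts were chosen after their values had been seen. On the array labelled ST vehicle 3, from a female by its label, the Y-linked genes Ddx3y and Eif2s3y were above background, at -3.17 and -2.79, while on the other 12 arrays Ddx3y lay between -7.81 and -5.04 and Eif2s3y between -7.72 and -6.37. The Y-linked genes Kdm5d and Uty were above background on 0 arrays, and both Xist probes, at 0.44 and -0.68, lay within the range of the other arrays. On the same array Cyp4a12a and Cyp4a12b, which are known as male-biased liver genes, stood at 0.42 and 0.91, against -3.02 to -1.59 and -3.62 to -1.49 elsewhere. The mean of 14 other male-biased liver genes was 4.01 there, and 2.51 and 2.87 on the other ST vehicle arrays, 2.59 to 2.93 in the HFHS group and 2.57 to 3.19 in the pollutant group.

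On the array labelled ST pollutants 2, the kidney transcript Kap stood at 6.26, against -7.43 to -5.23 on the other arrays, and Umod, Slc34a1 and Akr1c21 stood at 4.11, 3.25 and 2.72. Cyp24a1, which breaks down active vitamin D in the kidney, stood at -1.06 there and between -7.14 and -2.81 elsewhere, and Cyp2j11 at -1.43 there and between -6.94 and -4.86 elsewhere. Of 6 listed kidney tubule genes, only 2 were tested, both above background on all arrays. The mean of these 2 was 1.16 on that array and -1.70 to -0.65 on the other 12. Of 11 listed pancreatic acinar markers, 9 were tested, 4 of them above background on all arrays. The means of the 9 were 5.01, 3.76 and 7.11 on HFHS arrays 3, 4 and 5 and -3.35 to -1.72 on the other 10. Means of 9 hepatocyte markers, all above background on every array, lay between 7.31 and 7.66 with HFHS, between 7.55 and 7.76 with ST vehicle and between 7.55 and 7.83 with pollutants. In HFHS against pollutants 9 of the 9 had a negative difference, with a median of -0.10 and 0 called by limma (2 at an unadjusted p under 0.05). Means of the cholangiocyte markers, 7 of 8 above background on all arrays, were -1.97 to -1.69 with HFHS, below the -1.52 to -1.38 with ST vehicle, and -1.89 to -1.19 with pollutants. Of the 7 tested, 7 were negative in HFHS against pollutants and 6 in HFHS against ST vehicle, with 0 called by limma (3 and 1 at an unadjusted p under 0.05). Means of the erythroid markers, 4 of 6 above background on all arrays, were 2.41 to 2.97 with pollutants, above the 1.98 to 2.32 with ST vehicle, and 2.04 to 2.72 with HFHS. All 4 tested were positive in pollutants against ST vehicle, with 0 called (3 at an unadjusted p under 0.05). Of 6 listed skeletal muscle markers, 2 were above background on all arrays. Others of the 4 tested were kept through only some groups, so their direction is not independent of the filter. All 4 tested skeletal muscle markers were negative in HFHS against pollutants, with a median of -2.65. Of these, limma called 0, and 3 had an unadjusted p under 0.05. Their means were -5.24 to -0.89 with HFHS, -3.86 to -1.20 with ST vehicle and -3.57 to -0.79 with pollutants. Of 6 tested adipocyte markers, 5 were negative and 1 positive in HFHS against pollutants, with a median of -0.74 and 0 called. Only 3 of the 7 listed adipocyte markers were above background on all arrays, so the same limit holds for them. Of 13 pericentral hepatocyte markers, 9 were negative and 4 positive in each comparison with ST vehicle. Of these, limma called 1, Cyp1a2, lower with HFHS (-0.87, adjusted p = 0.0401). Of 12 periportal markers, limma called Cdh1, lower with pollutants than with ST vehicle (-0.985, adjusted p = 0.0429). It also called Pck1, lower with HFHS than with pollutants (-1.10, adjusted p = 0.0102). All 6 tested neutrophil markers were negative in HFHS against ST vehicle, with 0 called. The part of these transcripts and cell types in the results was not tested beyond leaving out the arrays with kidney or acinar transcripts.

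**Figure D1:**
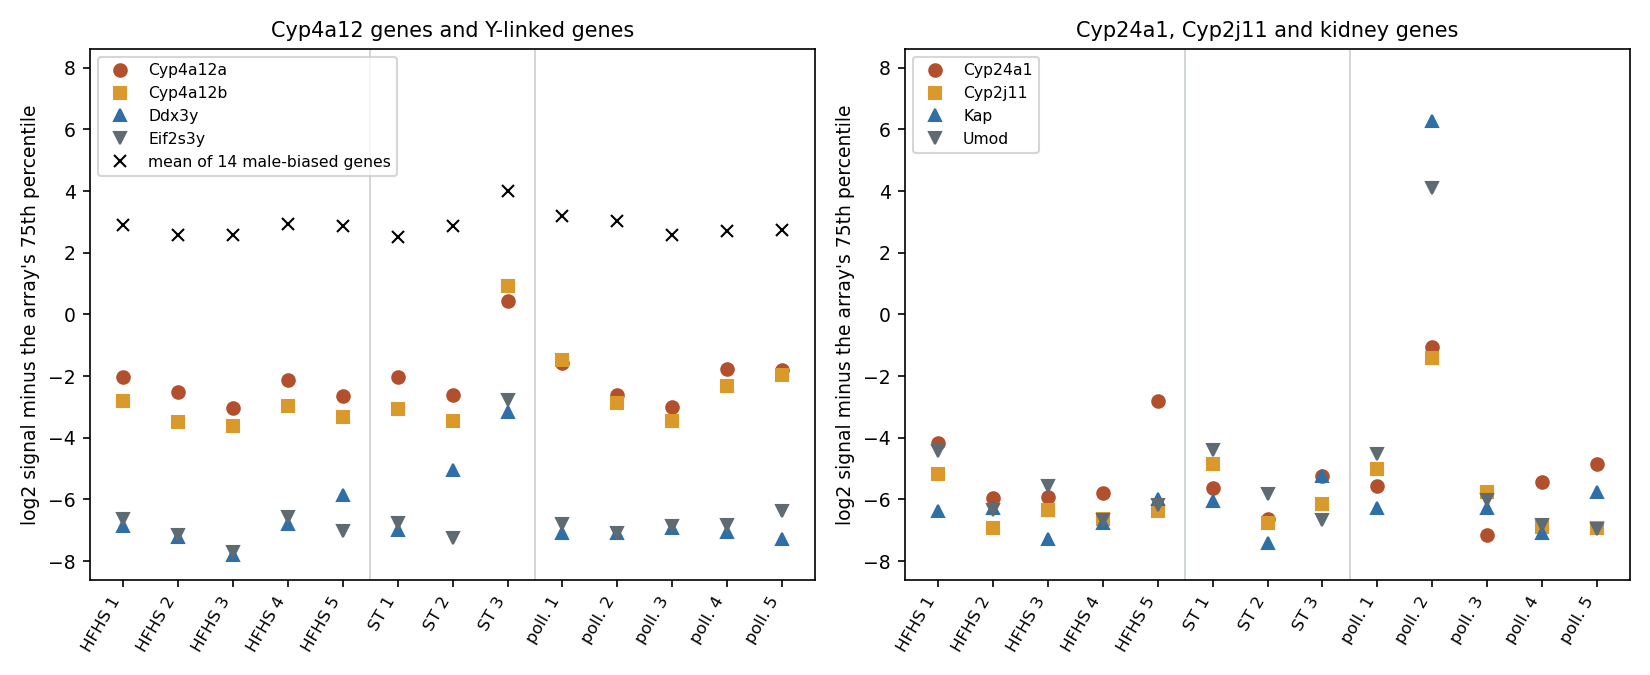
Levels on each of the 13 arrays, in log2 units relative to the array's 75th percentile, with the arrays of the 3 groups along the horizontal axis. Left, the pair Cyp4a12a and Cyp4a12b beside Ddx3y, Eif2s3y and the mean of 14 male-biased genes, all highest on the array labelled ST vehicle 3; right, Cyp24a1 and Cyp2j11 beside the kidney transcripts Kap and Umod, all highest on ST pollutants 2.

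Few of the 42 tested genes differed between groups. Calls were made in limma where the p adjusted over all 19518 genes or unnamed transcripts tested was under 0.05. The HFHS group against the ST vehicle group gave 1 of 42, or 2.38%, against 0.687% of all genes tested, and the gene was Cyp20a1, lower with HFHS, a direction in which 0.451% of all genes were called. The pollutant group against the ST vehicle group also gave 1 of 42, again Cyp20a1 and lower, against 0.984% of all genes, 0.543% higher and 0.441% lower. The HFHS group against the pollutant group gave 4 of 42, or 9.52%, against 3.87% of all genes: Cyp2j5 and Cyp2d40 were higher with HFHS, where 1.57% of all genes were called, and Cyp2j9 and Cyp2u1, the latter by a probe that holds a long repeat, were lower, where 2.30% were. The HFHS and pollutant comparisons with the ST vehicle group share its 3 arrays. The HFHS and pollutant groups differ by their labels both in the diet and in the mixture, and the effects of those cannot be told apart in that comparison.

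At an unadjusted p under 0.05, the shares were 16.7% of the 42 genes in HFHS against ST vehicle, against 12.1% of all genes, 14.3% in pollutants against ST vehicle, against 12.1%, and 21.4% in HFHS against pollutants, against 18.3%. The 14.3% includes Cyp4f40, which was kept through the ST vehicle group alone. Groups did not overlap for 4 of the 42 genes, 9.52%, in HFHS against ST vehicle, near the 9.15% of all genes: Cyp2a22 and Cyp2d40 were higher with HFHS on every array, as 3.82% of all genes were, and Cyp20a1 and Cyp4f16 lower, as 5.33% were. They did not overlap for 2 genes, 4.76%, in pollutants against ST vehicle, where 8.32% of all genes did not: Cyp2a4 was higher, as 3.92% of all genes were, and Cyp20a1 lower, as 4.40% were. In HFHS against pollutants, 3 genes did not overlap, 7.14% against 6.93% of all genes: Cyp2d40 and Cyp2j5 were higher, as 2.74% of all genes were, and Cyp2u1 lower, as 4.19% were.

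The median log2 fold change of the 42 genes was -0.03 in HFHS against ST vehicle, -0.11 in pollutants against ST vehicle and -0.01 in HFHS against pollutants, where the medians of all genes were -0.02, -0.01 and -0.01. Of the 42, 26, 28 and 23 had a negative value in the 3 comparisons. In each comparison the 95% confidence interval lay within 2-fold either way for 31 of the 42 genes, and within 1.41-fold for 19, 20 and 21. For the remaining genes the interval reached past 2-fold.

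**Figure D2:**
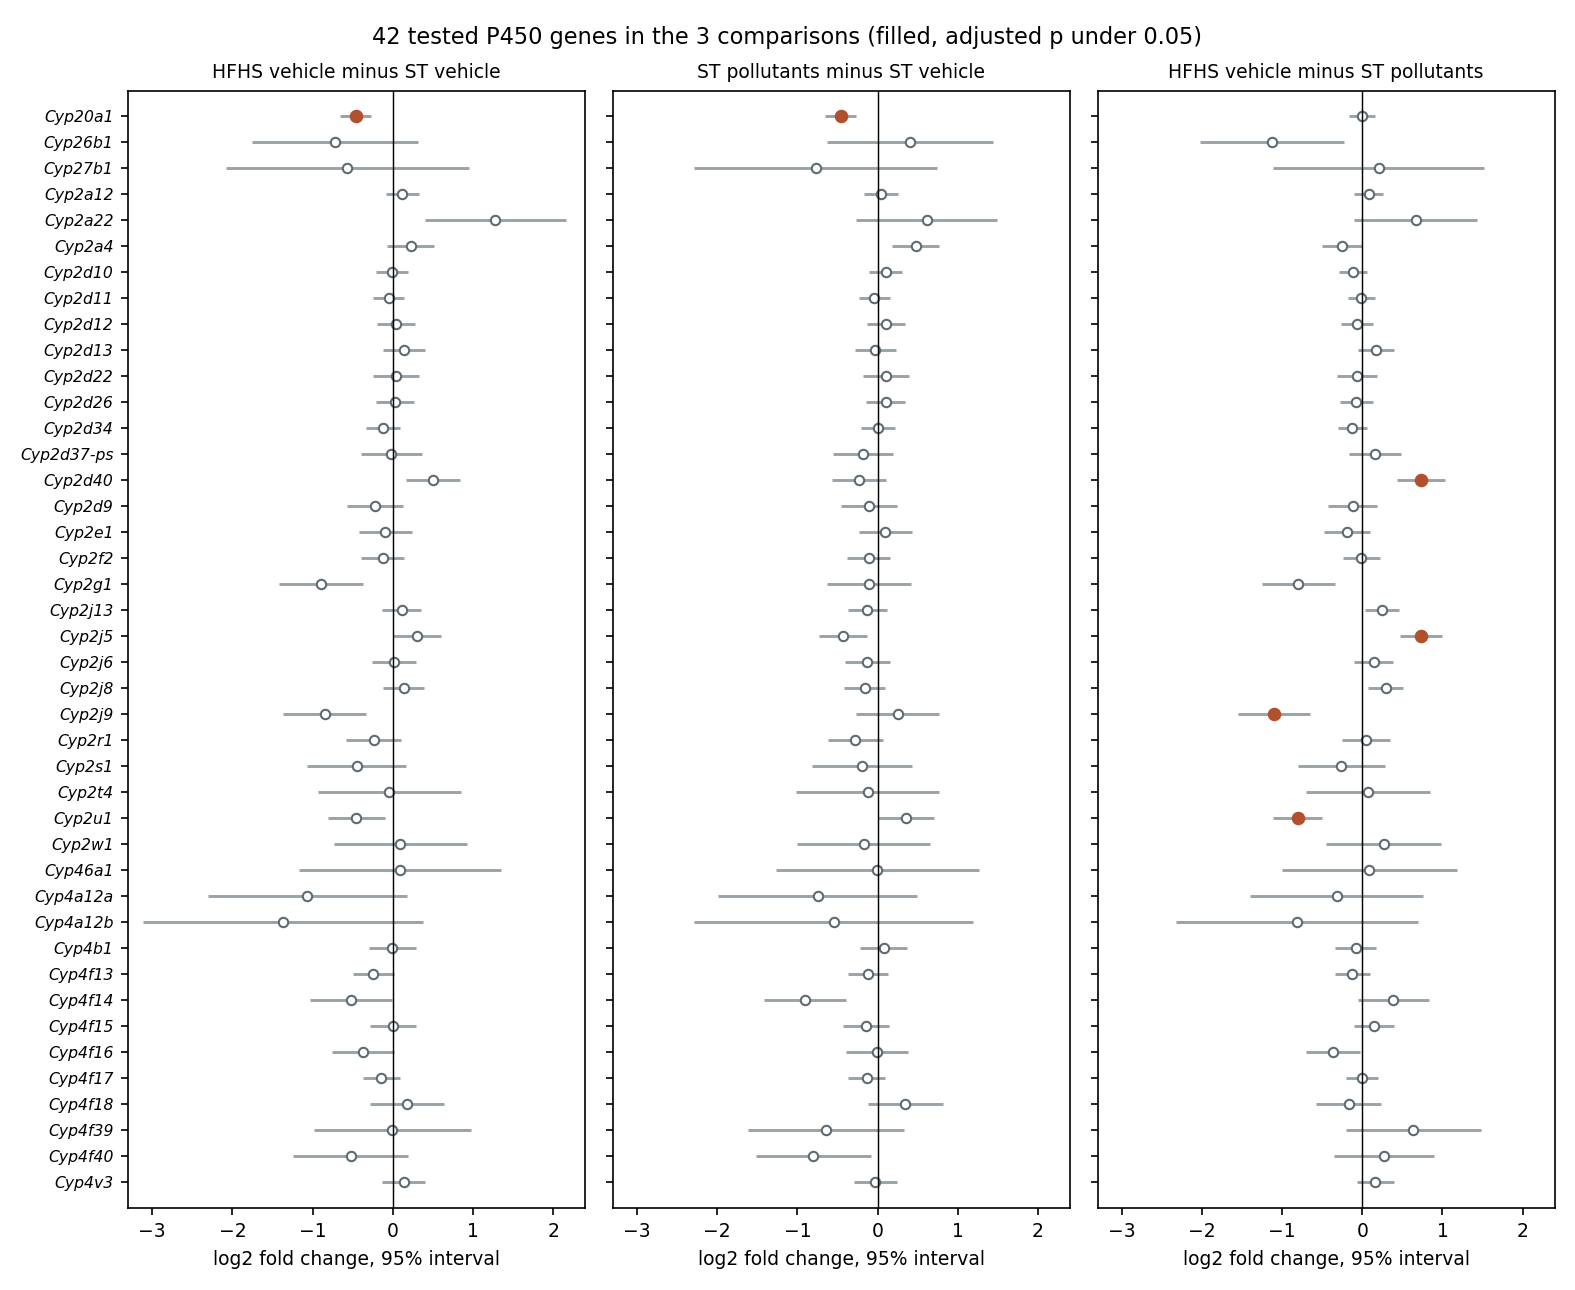
Log2 fold change with its 95% confidence interval for each of the 42 tested genes, in the 3 comparisons of HFHS vehicle, ST pollutants and ST vehicle. Filled points were called at an adjusted p under 0.05: Cyp20a1 at -0.46 in both comparisons with ST vehicle, and Cyp2j5, Cyp2d40, Cyp2j9 and Cyp2u1 in HFHS against pollutants.

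Cyp2j genes encode fatty acid epoxygenases and hydroxylases and lie together on mouse chromosome 4. Cyp2j5 makes epoxides of arachidonic acid in kidney and liver, and Cyp2j9 was described in brain. Their probes are 58832 bases apart on build mm9, and they differed in opposite directions between the HFHS and pollutant groups. The promoters are shown because these neighbours differed in opposite directions while Cyp2d40, on chromosome 15, differed in the direction of Cyp2j5. They are the 250 bases before the annotated start, from RefSeq on GRCm38.p6, 5′ to 3′ on the gene's strand, which is the minus strand for all 3. The intervals are chr4:96664120-96664369 for Cyp2j5, chr4:96591486-96591735 for Cyp2j9 and chr15:82764123-82764372 for Cyp2d40. Capitals mark matches to the TATA box letters TATAAA and the CCAAT box letters CCAAT, read on both strands.
Cyp2j5: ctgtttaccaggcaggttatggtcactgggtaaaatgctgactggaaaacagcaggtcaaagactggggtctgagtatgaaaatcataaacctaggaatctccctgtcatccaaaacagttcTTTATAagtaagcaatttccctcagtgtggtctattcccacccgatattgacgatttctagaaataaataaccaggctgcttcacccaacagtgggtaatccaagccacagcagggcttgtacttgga
Cyp2j9: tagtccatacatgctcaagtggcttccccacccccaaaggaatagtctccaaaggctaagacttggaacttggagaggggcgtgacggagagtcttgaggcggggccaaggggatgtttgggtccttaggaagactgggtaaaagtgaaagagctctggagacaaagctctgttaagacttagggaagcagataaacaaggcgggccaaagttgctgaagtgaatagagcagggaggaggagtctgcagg
Cyp2d40: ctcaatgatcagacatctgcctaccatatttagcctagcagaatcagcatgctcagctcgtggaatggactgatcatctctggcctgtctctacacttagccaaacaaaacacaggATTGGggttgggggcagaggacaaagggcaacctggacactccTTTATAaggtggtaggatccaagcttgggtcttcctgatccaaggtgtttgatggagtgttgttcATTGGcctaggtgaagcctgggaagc
The Cyp2j5 window holds TTTATA, the TATAAA letters read on the other strand, the Cyp2d40 window holds TTTATA and ATTGG at 2 places, and the Cyp2j9 window holds no match to any motif searched. Over the 37 windows of 32 tested genes, TATAAA occurred in 11, or 29.7%, against 12.4% of all 32851 promoter windows of that length. CCAAT occurred in 48.6% of them against 33.8%, the E box CACGTG in 5.41% against 6.02% and the HNF1 half-site GTTAAT in 10.8% against 6.43%. The PAR bZIP sites TTATGTAA and TTACGTAA and the HNF4 letters CAAAGTCCA occurred in 0 of the 37, against 0.931% and 0.384%. Clusters of close relatives share sequence, so these windows are not independent, and a match of letters is not a site.

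Cyp2j5 stood at 0.42, 0.22, 0.30, 0.05 and 0.27 on the 5 HFHS arrays, at -0.28, 0.15 and -0.002 on the 3 ST vehicle arrays, and at -0.18, -0.30, -0.61, -0.69 and -0.62 on the 5 pollutant arrays. Every HFHS array lay above every pollutant array, and the ST vehicle arrays lay between, overlapping both. The level was 1.66-fold higher with HFHS than with pollutants (log2 0.73 ± 0.12, SE; limma, adjusted p = 0.00713). The difference from ST vehicle was 0.30 ± 0.14 for HFHS (adjusted p = 0.422) and -0.43 ± 0.14 for pollutants (adjusted p = 0.193), and neither was called. In bulk liver RNA, fewer cells of a type and less RNA per cell cannot be told apart.

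Cyp2j9 stood at -0.81, -0.60, -0.80, 0.13 and -0.47 on the HFHS arrays, at 0.62, 0.49 and -0.09 on the ST vehicle arrays, and at 0.58, 0.11, 0.86, 0.82 and 0.59 on the pollutant arrays. The HFHS arrays lay below the pollutant arrays except HFHS array 4, which lay just above pollutant array 2. The level was 2.14-fold lower with HFHS than with pollutants (log2 -1.10 ± 0.21, SE; limma, adjusted p = 0.013). Against ST vehicle, HFHS gave -0.85 ± 0.24 (adjusted p = 0.16) and pollutants 0.25 ± 0.24 (adjusted p = 0.797), neither called.

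The other tested genes of the Cyp2j cluster differed less between HFHS and pollutants, and none was called. Cyp2j8 stood at 3.68, 3.98, 3.65, 3.86 and 3.87 with HFHS, at 3.61, 3.86 and 3.55 with ST vehicle, and at 3.77, 3.57, 3.36, 3.48 and 3.39 with pollutants. The HFHS arrays overlapped the pollutant arrays through pollutant array 1, and the difference was 0.29 ± 0.10 (adjusted p = 0.135). Cyp2j13, whose probe is also listed for Cyp2j12, stood at 1.08, 1.36, 1.00, 1.24 and 1.21 with HFHS, at 0.98, 1.17 and 1.03 with ST vehicle, and at 1.16, 1.07, 0.80, 0.90 and 0.76 with pollutants, with overlap of the groups. Its difference was 0.24 ± 0.10 (adjusted p = 0.204). Cyp2j6, an intestinal form, gave 0.14 ± 0.11 (adjusted p = 0.591). Against ST vehicle all 3 lay between -0.16 and 0.13 in both comparisons. Along the cluster the values were therefore positive for Cyp2j13, Cyp2j8, Cyp2j6 and Cyp2j5, and negative for Cyp2j9.

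Cyp2d40, a gene of the Cyp2d cluster, whose members act on steroids and many drugs, was the other gene higher with HFHS than with pollutants. It stood at 5.93, 5.74, 5.89, 5.73 and 5.78 on the HFHS arrays, at 5.11, 5.43 and 5.40 on the ST vehicle arrays, and at 5.57, 5.22, 4.83, 4.88 and 4.90 on the pollutant arrays. All 5 HFHS arrays lay above the other 8. The level was 1.66-fold higher than with pollutants (log2 0.73 ± 0.14, SE; limma, adjusted p = 0.0121). Against ST vehicle it was 0.50 ± 0.16 for HFHS (adjusted p = 0.21) and -0.23 ± 0.16 for pollutants (adjusted p = 0.667), neither called.

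The other 9 tested genes of the Cyp2d cluster lay between -0.12 and 0.17 in HFHS against pollutants, none called. Among them, Cyp2d10 stood at 6.98, 6.82, 6.94, 7.09 and 7.16 with HFHS, at 6.86, 7.16 and 7.01 with ST vehicle, and at 7.02, 7.08, 7.17, 7.11 and 7.18 with pollutants. Over all 13 arrays it ranged only from 6.82 to 7.18, with -0.01 ± 0.09 in HFHS against ST vehicle, 0.10 ± 0.09 in pollutants against ST vehicle and -0.11 ± 0.08 in HFHS against pollutants (adjusted p = 0.534). Cyp2d9, a male-biased steroid hydroxylase, stood at 3.22, 3.20, 2.94, 3.21 and 2.88 with HFHS, at 3.03, 3.25 and 3.67 with ST vehicle, and at 3.53, 3.07, 3.14, 3.32 and 3.00 with pollutants. Its highest level was that of ST vehicle array 3. Its differences were -0.23 ± 0.16 (adjusted p = 0.698), -0.10 ± 0.16 (adjusted p = 0.904) and -0.12 ± 0.14 (adjusted p = 0.77) in the same order. Cyp2d11, Cyp2d12, Cyp2d13, Cyp2d22, Cyp2d26, Cyp2d34 and the pseudogene Cyp2d37-ps gave HFHS against pollutants values of -0.01, -0.07, 0.17, -0.06, -0.07, -0.12 and 0.16. Members of this cluster are near copies of each other, and cross-hybridization between them was not tested.

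**Figure D3:**
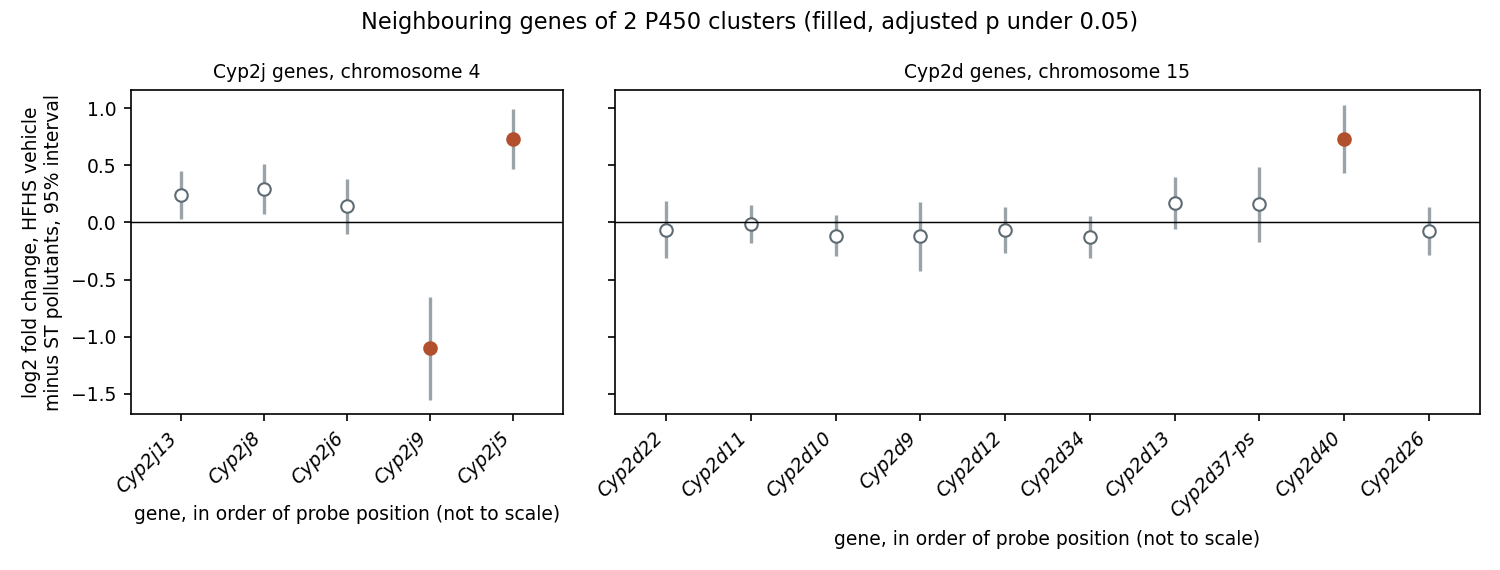
Log2 difference between HFHS vehicle and ST pollutants, with its 95% confidence interval, for the tested genes of the Cyp2j cluster on chromosome 4 and of the Cyp2d cluster on chromosome 15, in the order of their probes. Cyp2j5 (0.73) and Cyp2j9 (-1.10) lie on opposite sides of 0, and Cyp2d40 (0.73) is the called gene of the Cyp2d cluster.

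Each of the 5 slides holds the HFHS array and the pollutant array of the same number. Within slides the differences between the pair were 0.52 to 0.91 for Cyp2j5 and 0.36 to 1.05 for Cyp2d40, whose sign is given already by groups that do not overlap, and -1.66 to -0.68 for Cyp2j9. With the slide as a block all 3 were called (limma adjusted p = 0.017, 0.03 and 0.0216 in that order). Without HFHS arrays 3, 4 and 5, which carried the acinar transcripts, Cyp2j9 was still called, while Cyp2j5 (0.80, limma adjusted p = 0.0636) and Cyp2d40 (0.75, limma adjusted p = 0.119) were not. Without slide 1 none of the 3 was called, at 0.77 (adjusted p = 0.0692) for Cyp2j5, 0.82 (adjusted p = 0.0612) for Cyp2d40 and -1.03 (adjusted p = 0.0939) for Cyp2j9. Each of the 3 remained called when any single array was left out. With normexp background correction Cyp2d40 was not called (0.60 ± 0.19, limma adjusted p = 0.16), while Cyp2j5 (0.66, adjusted p = 0.0209) and Cyp2j9 (-1.06, adjusted p = 0.0113) were.

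Cyp2u1, a fatty acid hydroxylase, was the fourth gene called between HFHS and pollutants, and its value depends on the probe. The brightest probe, used for the test, lies at chr3:130996343-130996402 on mm9, on the minus strand. It holds a run of the bases T and G repeated over 32 of its 60 bases, as long as in 19 of the 39429 probes of the array, or 0.0482%. Part of the probe is shown because it is this run, in capitals, that the probe shares with probes of unrelated genes.
Cyp2u1 probe, 30 bases: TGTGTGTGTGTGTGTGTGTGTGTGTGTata
By this probe Cyp2u1 stood at 6.36, 6.42, 6.51, 6.98 and 6.79 on the HFHS arrays, at 6.98, 7.25 and 6.97 on the ST vehicle arrays, and at 7.53, 7.45, 7.09, 7.33 and 7.69 on the pollutant arrays. All HFHS arrays lay below all pollutant arrays. The probe was 1.75-fold lower with HFHS than with pollutants (log2 -0.81 ± 0.14, SE; limma, adjusted p = 0.00875), with -0.45 ± 0.16 for HFHS against ST vehicle (adjusted p = 0.261) and 0.35 ± 0.16 for pollutants against ST vehicle (adjusted p = 0.411).

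The second Cyp2u1 probe above background on all 13 arrays, which has no such run, gave 0.006 ± 0.175 in HFHS against pollutants and -0.14 ± 0.20 and -0.15 ± 0.20 in the comparisons with ST vehicle. Of the 18 other probes kept with a repeat of that length, 14 carry the same repeat, and all 14 were lower with HFHS than with pollutants, between -1.10 and -0.60 with a median of -0.98. They are listed for genes such as Ephb3 (-1.05), Ldlrad3 (-1.10) and Luc7l2 (-0.60). The 3 with the complementary repeat were all higher, between 1.04 and 1.07, and the 1 with another repeat gave -0.08. In an alternative chosen after seeing the data, probes with 12 or more copies of a unit of 2 bases were left out. Cyp2u1 was then read by its second probe and was not called (limma adjusted p = 0.997). In HFHS against pollutants 3 of 42 genes were called there, Cyp2j5, Cyp2d40 and Cyp2j9, where 3.4% of all genes were called. As the mean over its kept probes, too, Cyp2u1 was not called (-0.40 ± 0.13, limma adjusted p = 0.123). The difference of the Cyp2u1 probe is therefore given as that of a probe, not of the transcript.

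**Figure D4:**
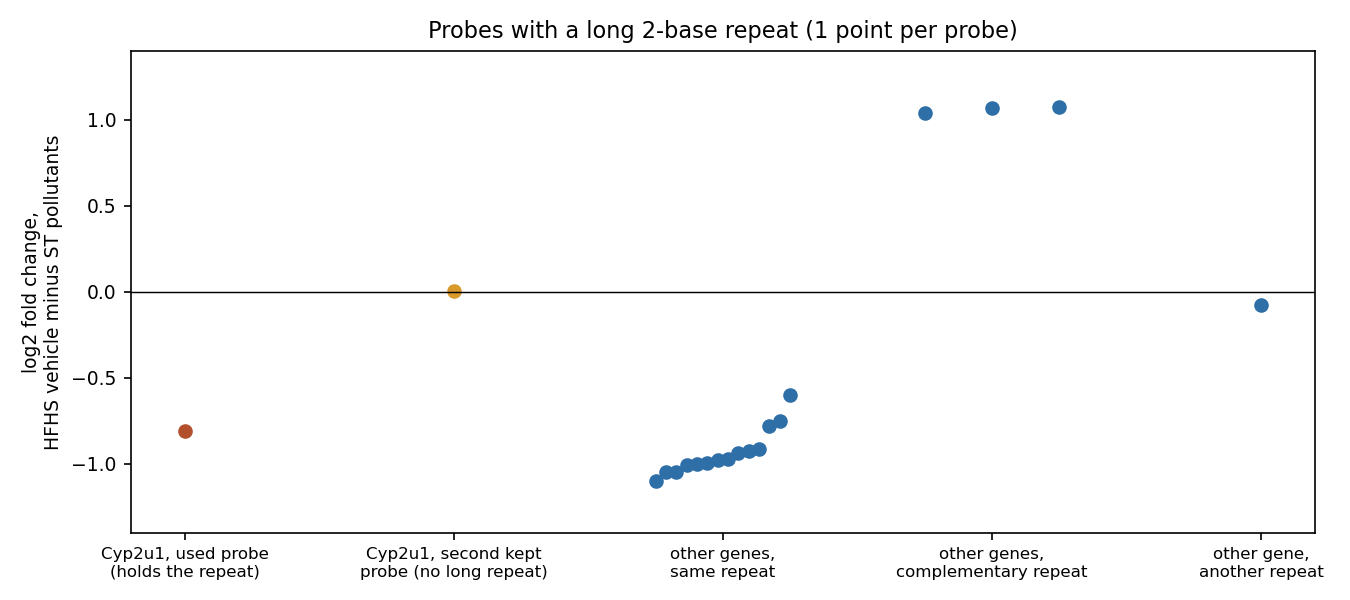
Log2 difference between HFHS vehicle and ST pollutants for the used Cyp2u1 probe, its second kept probe, and the 18 other kept probes with a repeat of a 2-base unit as long, with 1 point per probe. The used Cyp2u1 probe (-0.81) lies among the 14 probes of other genes with the same repeat, the 3 with the complementary repeat lie above 1, and the second Cyp2u1 probe lies at 0.006.

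Cyp20a1, an orphan member of the family whose substrates are not settled, was the gene called in both comparisons with ST vehicle. Its probe lies at chr1:60444156-60444215 on mm9, on the plus strand. It stood at -1.56, -1.60, -1.62, -1.33 and -1.70 on the HFHS arrays, at -1.07, -1.10 and -1.13 on the ST vehicle arrays, and at -1.54, -1.48, -1.65, -1.47 and -1.66 on the pollutant arrays. Both groups of 5 lay entirely below the ST vehicle arrays, which lay close together. The level was 1.38-fold lower with HFHS (log2 -0.46 ± 0.09, SE; limma, adjusted p = 0.0401) and likewise with pollutants (-0.46 ± 0.09; adjusted p = 0.0351), against the same 3 arrays. Between HFHS and pollutants it differed by -0.003 ± 0.077 (adjusted p = 0.996), with an interval from -0.17 to 0.17.

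The promoter of Cyp20a1 is shown because the gene was called in both comparisons. It covers chr1:60343050-60343299 of GRCm38.p6 on the plus strand, from RefSeq, and holds no match to the motifs searched.
Cyp20a1: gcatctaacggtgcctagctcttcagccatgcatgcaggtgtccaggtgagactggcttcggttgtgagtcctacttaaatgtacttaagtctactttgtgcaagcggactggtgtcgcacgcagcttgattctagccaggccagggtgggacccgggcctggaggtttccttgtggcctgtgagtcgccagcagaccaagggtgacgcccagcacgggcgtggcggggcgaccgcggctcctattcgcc
Its second probe, above background on 12 arrays, gave 0.03 ± 0.30 for HFHS and -0.20 ± 0.30 for pollutants against ST vehicle. The calls were close to the threshold. For HFHS the call held without HFHS array 4 (adjusted p = 0.0193) or pollutant array 2 (0.0491). It was lost without HFHS array 1 (0.0797), 2 (0.0973), 3 (0.081) or 5 (0.091), ST vehicle array 1 (0.141), 2 (0.117) or 3 (0.123), or pollutant array 1 (0.0531), 3 (0.0611), 4 (0.0575) or 5 (0.05), at log2 values from -0.52 to -0.43. For pollutants it held without HFHS array 3 (0.0497), 4 (0.025) or 5 (0.0384) or pollutant array 2 (0.048), and was lost without HFHS array 1 (0.0537) or 2 (0.0601), any ST vehicle array (0.102 to 0.133), or pollutant array 1 (0.0598), 3 (0.0833), 4 (0.0641) or 5 (0.0767), at -0.48 to -0.43. Within the 3 slides that hold an ST vehicle array, the differences from it were -0.57 to -0.49 for HFHS and -0.53 to -0.38 for pollutants, with a sign that is given already by groups that do not overlap. Slide and replicate number differ for 1 array, ST vehicle 3, which lies on slide 5. With the slide as a block both calls held (limma adjusted p = 0.0383 and 0.0426), and with the replicate number as a block both were lost (adjusted p = 0.062 and 0.0683).

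**Figure D5:**
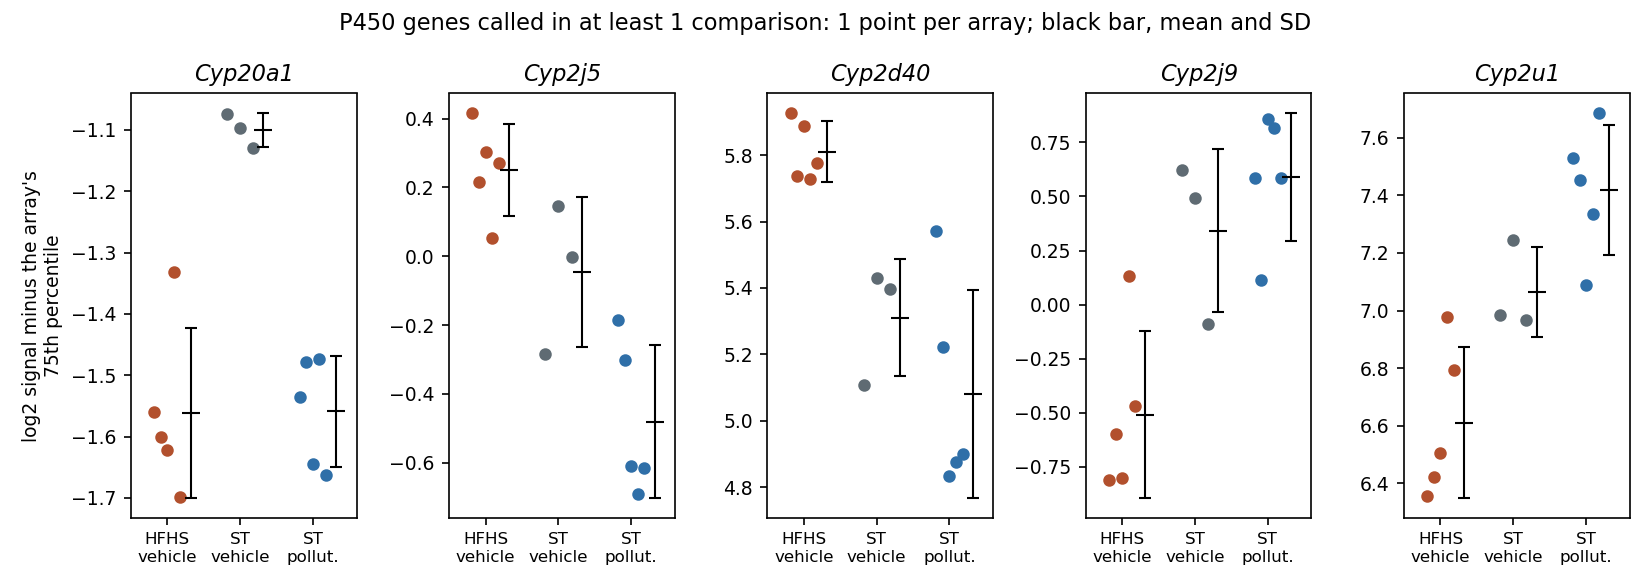
Levels on each array, in log2 units relative to the array's 75th percentile, for the 5 genes called in a comparison, with the mean and SD of each group (n = 5, 3 and 5 arrays). Cyp20a1 lies lower in both groups of 5 than on the 3 ST vehicle arrays, Cyp2j5 and Cyp2d40 lie higher and Cyp2j9 and the used Cyp2u1 probe lower with HFHS than with pollutants.

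The genes of the Cyp2a, Cyp2f and Cyp2g families lie together on chromosome 7, and none of them was called. Cyp2a4, a female-biased steroid hydroxylase, had 2 probes, both also listed for Cyp2a5, the coumarin hydroxylase, so that the values stand for both genes. No probe carried the name Cyp2a5 alone. The probe with the higher signal was used. The other, which crosses an exon junction and spans chr7:27098659-27099724 on mm9, plus strand, is shown because it is the sequence on which the pair cannot be separated by the file's own listing.
Cyp2a4 and Cyp2a5 probe: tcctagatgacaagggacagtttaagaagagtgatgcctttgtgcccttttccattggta
By the probe used, Cyp2a4 stood at 7.62, 7.57, 7.70, 7.90 and 8.18 with HFHS, at 7.56, 7.75 and 7.39 with ST vehicle, and at 7.99, 8.01, 8.2, 8.0 and 8.01 with pollutants. All pollutant arrays lay above all ST vehicle arrays, and the HFHS arrays spanned both. The differences were 0.48 ± 0.14 (limma adjusted p = 0.141, a 1.39-fold level) for pollutants against ST vehicle, 0.22 ± 0.14 (0.606) for HFHS against ST vehicle and -0.25 ± 0.12 (0.279) for HFHS against pollutants. The junction probe gave 0.68 ± 0.17, 0.33 ± 0.17 and -0.35 ± 0.14 in the same order. In the table of normalized values that the authors deposited, fitted the same way, the pollutant difference was 0.47 and called (adjusted p = 0.0426).

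Cyp2a22 stood at 0.68, 0.30, 1.32, 0.10 and 0.48 with HFHS, at -0.01, -0.38 and -1.72 with ST vehicle, and at -0.77, -0.58, 0.24, 0.22 and 0.43 with pollutants. All HFHS arrays lay above the ST vehicle arrays, of which array 3 was the lowest of all 13. The difference was 1.28 ± 0.41 (adjusted p = 0.214) for HFHS and 0.61 ± 0.41 (adjusted p = 0.652) for pollutants against ST vehicle, and 0.67 ± 0.35 (adjusted p = 0.356) between them. Without ST vehicle array 3 the HFHS difference was 0.77 ± 0.37 (adjusted p = 0.542). Cyp2a12, which hydroxylates steroids and bile acids, stood at 6.64, 6.70, 6.74, 6.87 and 6.93 with HFHS, at 6.59, 6.86 and 6.52 with ST vehicle, and at 6.64, 6.62, 6.77, 6.71 and 6.76 with pollutants. The groups overlapped within a range of 6.52 to 6.93, with 0.12 ± 0.10 (adjusted p = 0.772) for HFHS and 0.04 ± 0.10 (adjusted p = 0.95) for pollutants against ST vehicle.

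Cyp2g1, known from olfactory tissue, stood at 0.25, -0.45, -0.16, -0.49 and -0.39 with HFHS, at 0.22, 0.88 and 0.86 with ST vehicle, and at 0.12, 0.77, 1.09, 0.35 and 0.41 with pollutants. HFHS array 1 overlapped both other groups, and the other 4 HFHS arrays lay below them. It was the nearest to a call among the genes not called in HFHS against pollutants, at -0.80 ± 0.21 (limma adjusted p = 0.0567). Against ST vehicle it gave -0.90 ± 0.24 (adjusted p = 0.137) for HFHS and -0.10 ± 0.24 (adjusted p = 0.95) for pollutants. It was called in HFHS against pollutants when HFHS array 1 was left out (-0.92, adjusted p = 0.0427) or pollutant array 1 (-0.90, adjusted p = 0.0457), both on slide 1.

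Cyp2f2, which activates naphthalene, stood at 6.86, 6.94, 6.65, 7.02 and 7.11 with HFHS, at 6.86, 7.17 and 7.09 with ST vehicle, and at 7.11, 6.88, 7.02, 6.94 and 6.68 with pollutants. The 3 groups of Cyp2f2 values overlapped, with -0.12 ± 0.12 (adjusted p = 0.847) and -0.11 ± 0.12 (adjusted p = 0.832) against ST vehicle. Cyp2e1, the ethanol-metabolizing enzyme of pericentral hepatocytes, stood at 8.40, 8.35, 8.27, 8.75 and 8.88 with HFHS, at 8.48, 8.62 and 8.78 with ST vehicle, and at 8.48, 8.64, 8.85, 8.73 and 8.91 with pollutants. The 3 groups of Cyp2e1 values overlapped throughout. The differences were -0.10 ± 0.15 (adjusted p = 0.95) for HFHS and 0.10 ± 0.15 (adjusted p = 0.912) for pollutants against ST vehicle, each interval reaching 0.43 at most in size, and -0.19 ± 0.13 (adjusted p = 0.521) between them. Its second probe gave -0.03, 0.24 and -0.27 in the same order. Cyp2t4 (-3.09 to -1.43 over all arrays), Cyp2s1 (-2.27 to -0.74) and Cyp2w1 (-5.77 to -3.82), of which Cyp2s1 is known from epithelia, had differences between -0.45 and 0.27, none called.

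The pair Cyp4a12a and Cyp4a12b encodes male-biased arachidonic acid hydroxylases, and its values in the ST vehicle group rest on 1 array. Cyp4a12a stood at -2.02, -2.52, -3.02, -2.14 and -2.66 with HFHS, at -2.04, -2.60 and 0.42 with ST vehicle, and at -1.59, -2.62, -2.99, -1.77 and -1.79 with pollutants. Cyp4a12b stood at -2.81, -3.48, -3.62, -2.96 and -3.32 with HFHS, at -3.08, -3.45 and 0.91 with ST vehicle, and at -1.49, -2.86, -3.46, -2.32 and -1.97 with pollutants. ST vehicle arrays 1 and 2 lay among the other groups for both genes, and ST vehicle array 3, the one with Ddx3y and Eif2s3y above background, lay above all. The Cyp4a12a probe is also listed for Cyp4a12b.

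For HFHS against ST vehicle Cyp4a12a gave -1.07 ± 0.57 (adjusted p = 0.516) and Cyp4a12b -1.37 ± 0.80 (adjusted p = 0.58), and for pollutants -0.75 ± 0.57 (adjusted p = 0.723) and -0.55 ± 0.80 (adjusted p = 0.897). Without ST vehicle array 3 these became -0.15 ± 0.39 and 0.03 ± 0.43 for HFHS, and 0.17 ± 0.39 and 0.84 ± 0.43 for pollutants. HFHS against pollutants gave -0.32 ± 0.49 (adjusted p = 0.856) and -0.82 ± 0.69 (adjusted p = 0.639). Those differences do not use the level of ST vehicle array 3, but their SE and p do, through the spread pooled over the 3 groups. For Cyp4a12b the SD was 2.42 with ST vehicle, 0.34 with HFHS and 0.77 with pollutants.

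The Cyp4f genes of chromosome 17 and Cyp4f18 encode hydroxylases of leukotrienes and long-chain fatty acids, and none of them was called. Cyp4f14, the leukotriene hydroxylase of mouse liver, had the smallest p of the uncalled genes in pollutants against ST vehicle. It stood at 5.28, 4.93, 5.14, 5.28 and 4.84 with HFHS, at 5.24, 5.68 and 5.92 with ST vehicle, and at 5.31, 4.98, 4.56, 4.54 and 4.15 with pollutants. Pollutant array 1 overlapped the ST vehicle arrays, and the other 4 lay below them. The difference was -0.91 ± 0.24 (limma adjusted p = 0.102, a 1.87-fold lower level) for pollutants and -0.52 ± 0.24 (adjusted p = 0.407) for HFHS against ST vehicle, and 0.39 ± 0.20 (adjusted p = 0.359) between them. Within the 3 shared slides, pollutants minus ST vehicle ran from -1.77 to 0.07, negative in 2 of 3.

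Cyp4f40 was dim, was above background on 2 of 5 pollutant arrays and was kept through the ST vehicle group alone. It stood at -3.59, -4.54, -4.65, -4.41 and -4.44 with HFHS, at -3.94, -4.03 and -3.43 with ST vehicle, and at -3.68, -4.34, -5.06, -4.75 and -5.18 with pollutants. The groups overlapped. Pollutants against ST vehicle gave -0.80 ± 0.33 (adjusted p = 0.34), HFHS against ST vehicle -0.53 ± 0.33 (adjusted p = 0.628) and HFHS against pollutants 0.28 ± 0.29 (adjusted p = 0.734). As Cyp4f40 was kept by its level in ST vehicle, its differences from that group are not an independent test. Cyp4f16 stood at -2.17, -1.99, -2.20, -2.20 and -2.42 with HFHS, at -1.91, -1.83 and -1.73 with ST vehicle, and at -1.94, -2.01, -1.85, -2.15 and -1.21 with pollutants. All HFHS arrays lay below all ST vehicle arrays, and the pollutant arrays overlapped both groups. It gave -0.37 ± 0.18 (adjusted p = 0.437) for HFHS against ST vehicle and -0.36 ± 0.15 (adjusted p = 0.23) against pollutants. Cyp4f13 stood at 2.37, 2.19, 2.33, 2.25 and 1.96 with HFHS, at 2.41, 2.67 and 2.29 with ST vehicle, and at 2.46, 2.29, 2.33, 2.46 and 2.18 with pollutants. The Cyp4f13 groups overlapped, with -0.24 ± 0.12 (adjusted p = 0.446) for HFHS and -0.12 ± 0.12 (adjusted p = 0.805) for pollutants against ST vehicle. Cyp4f15, Cyp4f17, Cyp4f18, a form of neutrophils, and Cyp4f39, a form of skin, gave -0.001, -0.14, 0.18 and -0.01 for HFHS and -0.15, -0.14, 0.35 and -0.64 for pollutants against ST vehicle.

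Cyp4v3, a fatty acid hydroxylase, stood at 4.48, 4.87, 4.53, 4.87 and 4.93 with HFHS, at 4.43, 4.72 and 4.65 with ST vehicle, and at 4.62, 4.58, 4.72, 4.52 and 4.42 with pollutants. The values gave 0.14 ± 0.12 (adjusted p = 0.818), -0.03 ± 0.12 (adjusted p = 0.981) and 0.16 ± 0.11 (adjusted p = 0.482) in HFHS against ST vehicle, pollutants against ST vehicle and HFHS against pollutants. Cyp4b1, known from lung, stood at 0.93, 0.88, 0.94, 0.80 and 0.65 with HFHS, at 0.51, 1.06 and 0.96 with ST vehicle, and at 0.64, 1.04, 1.06, 0.99 and 0.88 with pollutants. It gave -0.005 ± 0.135, 0.08 ± 0.14 and -0.08 ± 0.12 in the same order, adjusted p from 0.835 to 0.999. For these Cyp4v3 and Cyp4b1 values the 3 groups overlapped.

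Among the genes of vitamin D, Cyp2r1, which hydroxylates the vitamin in liver, stood at 3.01, 3.15, 2.87, 3.00 and 3.02 with HFHS, at 3.28, 3.00 and 3.47 with ST vehicle, and at 3.23, 2.74, 3.04, 2.59 and 3.24 with pollutants. The groups overlapped by this probe, with -0.24 ± 0.16 (adjusted p = 0.667) for HFHS and -0.28 ± 0.16 (adjusted p = 0.556) for pollutants against ST vehicle. Its second probe gave -0.60 ± 0.13 and -0.52 ± 0.13, and by it both groups lay below ST vehicle, at 0.47 to 0.64 with HFHS and 0.25 to 0.92 with pollutants against 0.97 to 1.32. The probes thus differ in the size of the value and in whether the groups overlap. Cyp27b1, which makes the active hormone, chiefly in the kidney, was dim and stood at -4.83, -3.52, -4.06, -2.68 and -3.09 with HFHS, at -2.62, -3.76 and -2.83 with ST vehicle, and at -6.19, -3.42, -3.72, -2.74 and -3.15 with pollutants. It varied by over 1 log2 unit within every group, and the groups overlapped. It gave -0.57 ± 0.70 (adjusted p = 0.902) and -0.77 ± 0.70 (adjusted p = 0.779) against ST vehicle, the group through which alone it was kept. Cyp24a1, which degrades the hormone, was not tested because it was not above background on all arrays of any group, and its highest level was that of the array with kidney transcripts.

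Cyp26b1, a retinoic acid hydroxylase, stood at 0.49, -0.32, -0.99, 0.94 and -0.49 with HFHS, at 0.05, 0.62 and 1.27 with ST vehicle, and at 0.07, 0.91, 1.99, 1.24 and 1.04 with pollutants. The spread within groups exceeded 1 log2 unit in each, and the groups overlapped. HFHS against pollutants gave -1.13 ± 0.41 (limma adjusted p = 0.159), HFHS against ST vehicle -0.72 ± 0.47 (adjusted p = 0.657) and pollutants against ST vehicle 0.40 ± 0.47 (adjusted p = 0.854).

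Cyp46a1, the cholesterol hydroxylase of neurons, stood at -1.19, 0.36, -0.15, 0.71 and 0.43 with HFHS, at -1.13, 0.24 and 0.73 with ST vehicle, and at -1.67, 0.18, 0.09, 0.66 and 0.46 with pollutants. The lowest array of each group was its first, and those 3 share slide 1. Its differences were 0.09 ± 0.58 (adjusted p = 0.996), -0.002 ± 0.580 and 0.09 ± 0.50 (adjusted p = 0.981).

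How closely replicates repeated each other varied among the 42 genes. The SD within groups, pooled over the 3 groups, had a median of 0.22, beside 0.20 for all genes tested, and lay below that of all genes for 20 of the 42. It was lowest for Cyp2d11 (0.10) and Cyp20a1 (0.11) and highest for Cyp4a12b (1.21), Cyp27b1 (1.05), Cyp46a1 (0.87) and Cyp4a12a (0.86). The highest values thus belonged to the pair read high on ST vehicle array 3, to Cyp46a1, read low on slide 1, and to Cyp27b1, dim on some arrays.

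The genes that supply P450 enzymes with electrons and heme were measured beside them. Of 19 tested, 1 was higher with HFHS than with ST vehicle, 2 were higher and 1 lower with pollutants than with ST vehicle, and 2 were higher with HFHS than with pollutants, where 0.687%, 0.984% and 3.87% of all genes were called. Alas1 rose with HFHS (1.48 ± 0.21, limma adjusted p = 0.0115) and with pollutants (1.88 ± 0.21, limma adjusted p = 0.00358) over the same ST vehicle arrays. Por rose with pollutants (0.87 ± 0.16, limma adjusted p = 0.0312), and with HFHS stood at 0.46 ± 0.16 (adjusted p = 0.265). Ppox, a late enzyme of heme synthesis, fell with pollutants (-0.39 ± 0.08, limma adjusted p = 0.0481), and Uros (0.60 ± 0.11, limma adjusted p = 0.0111) and Alad (0.40 ± 0.08, limma adjusted p = 0.0234), also of heme synthesis, were higher with HFHS than with pollutants. The median of the 19 was -0.02, -0.02 and -0.004 in the 3 comparisons. Calls against ST vehicle in this list and the following ones all rest on its 3 arrays. The counts of the following lists are to be read beside the same shares of all genes called. At an unadjusted p under 0.05, the shares of all genes were 12.1%, 12.1% and 18.3% in the 3 comparisons. Without ST vehicle 3 and pollutants 2, limma called 34 genes of the whole array in HFHS against ST vehicle and 3 in pollutants against ST vehicle. Most calls of listed genes in pollutants against ST vehicle were therefore lost there.

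Of 27 tested regulators of liver P450 genes, none was called against ST vehicle by limma, with 4 and 7 at an unadjusted p under 0.05. The transcriptional repressor Bcl6, male-biased in liver, stood at -2.11 ± 0.43 (limma adjusted p = 0.0527) with HFHS and -1.69 ± 0.43 (limma adjusted p = 0.0952) with pollutants. Foxa3 stood at -0.99 ± 0.20 (limma adjusted p = 0.0516) with HFHS. Stat5b, which carries the growth hormone signal, stood at -0.33 ± 0.07 (limma adjusted p = 0.0709) with HFHS and -0.32 ± 0.07 (limma adjusted p = 0.0727) with pollutants. In HFHS against pollutants 1 of 27 was higher, the prolactin receptor gene Prlr (0.56 ± 0.12, limma adjusted p = 0.0269), and 1 lower, Foxa3 (-0.77 ± 0.18, limma adjusted p = 0.0346), with 11 at an unadjusted p under 0.05. The medians of the 27 were 0.07, 0.04 and -0.02.

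Of 14 tested genes of the circadian clock and its PAR bZIP factors, which drive several P450 genes, 1 rose and 1 fell with HFHS against ST vehicle, 5 rose and 2 fell with pollutants against ST vehicle, and 1 was lower with HFHS than with pollutants. The activator Arntl fell (-1.60 ± 0.28, limma adjusted p = 0.0242, with HFHS and -2.13 ± 0.28, limma adjusted p = 0.00636, with pollutants), and the repressor gene Per2 rose (1.63 ± 0.29, limma adjusted p = 0.0258, and 1.85 ± 0.29, limma adjusted p = 0.0157). With pollutants Ciart (2.88), Per1 (1.47), Per3 (1.27) and Tef (0.99) also rose and Clock (-0.64) also fell, at limma adjusted p up to 0.0483. Per1 was lower with HFHS than with pollutants (-1.02 ± 0.24, limma adjusted p = 0.0359). Over all genes, 0.687%, 0.984% and 3.87% were called in the 3 comparisons. The medians of the 14 were 0.33, 0.50 and -0.19. Their mean level was 0.10 on ST vehicle array 3, and 0.43 and 0.65 on ST vehicle arrays 1 and 2. It was 0.57 to 0.93 with HFHS and 0.61 to 1.01 with pollutants. The time of day at which samples were taken is not given in the sources used here, and its part in any value was not tested.

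Of 18 other female-biased liver genes tested, none was called by limma in HFHS against ST vehicle, with 4 at an unadjusted p under 0.05, among them Acot3 (1.02, limma adjusted p = 0.0722) and Fmo2 (0.65, limma adjusted p = 0.0743). Fmo2, an oxygenase of foreign amines, rose with pollutants (0.89 ± 0.15, limma adjusted p = 0.0199), and Hao2, a peroxisomal oxidase, was higher with HFHS than with pollutants (1.71 ± 0.37, limma adjusted p = 0.0281). The medians of the 18 were 0.14, -0.006 and 0.11. Of 14 other male-biased genes, none was called by limma in any comparison, with 1 at an unadjusted p under 0.05 in each. Against ST vehicle 13 of 14 were negative in both comparisons, which share ST vehicle array 3, where these genes were high. The smallest p among them belonged to Gstp1 (-0.58, limma adjusted p = 0.301) with HFHS, and to Nudt7 with pollutants (-0.59, limma adjusted p = 0.307) and between HFHS and pollutants (0.58, limma adjusted p = 0.138). The medians of the 14 were -0.19, -0.18 and -0.05.

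Of 12 tested classic targets of P450 inducers, 2 fell with HFHS against ST vehicle, the carboxylesterase gene Ces2a (-0.73 ± 0.12, limma adjusted p = 0.0229) and Cyp1a2, an oxidase of planar aromatic compounds (-0.87 ± 0.17, limma adjusted p = 0.0401). None was called by limma in pollutants against ST vehicle, with 3 at an unadjusted p under 0.05, of which Cyp2c29 gave -0.31 (limma adjusted p = 0.201) and Cyp4a14 1.01 (limma adjusted p = 0.249). Ces2a was also lower with HFHS than with pollutants (-0.73 ± 0.11, limma adjusted p = 0.00586). The medians of the 12 were -0.01, 0.006 and -0.18.

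Of 4 other genes of vitamin D handling tested and of 17 of arachidonic acid handling, none was called by limma in any comparison. At an unadjusted p under 0.05 the counts were 1, 0 and 0 for vitamin D, where the mitochondrial hydroxylase Cyp27a1 gave -0.54 (limma adjusted p = 0.225) with HFHS. They were 4, 3 and 2 for arachidonic acid, where the prostaglandin synthase gene Ptgds gave -1.37 (limma adjusted p = 0.0838) with HFHS, Pla2g12b -0.40 (limma adjusted p = 0.171) and the epoxide hydrolase gene Ephx2 0.47 (limma adjusted p = 0.196) with pollutants, and the prostaglandin dehydrogenase gene Hpgd 0.27 (limma adjusted p = 0.0884) in HFHS against pollutants. Ephx2 opens the epoxides that Cyp2j5 makes. The medians were -0.005, 0.04 and -0.04 for the 4 genes, and 0, 0.03 and -0.06 for the 17.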

How the data were processed

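Single-colour arrays measured RNA in 13 samples of female mouse liver, with 0.1 ug of RNA per labelling. The authors deposited 1 scanner file per array, written by Agilent Feature Extraction 11.5.1.1 per the file headers, and its processed signal, a linear intensity per spot, was used. A deposited table of log2 values covers 26082 probes, and the submitters' processing notes name limma. Its log2 scale was read from the values, its column medians lie between 9.28 and 9.30, its centring is not given in the sources used here, and it served as an alternative only. Each of its 13 columns matched its own array best, and 0 columns of values could not be matched to a sample.

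Control spots were left out, outlier spots set to missing (128 values), spots of a probe averaged on the log2 scale, and the 75th percentile of the array subtracted. A probe was kept if in 1 group or more all arrays had it well above background, and a gene took its kept probe of highest mean, which gave 19518 genes or unnamed transcripts. limma 3.58.1 in R 4.3.3 fitted 1 model with the 3 groups to all 13 arrays, and contrasts were tested two-sided with Benjamini-Hochberg adjustment at 0.05 over all genes. The procedure was run on simulated data of independent normal values. These had no slide effects and no arrays with transcripts of other tissues, so the simulation says nothing about either. The number of arrays limits the precision. Probe positions are the files' own, on mm9, and promoters and names come from RefSeq, which matched 49 of 49 genes.

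Values are given in full for each gene called, for the 5 uncalled genes of smallest p in each comparison, and for a set of well-known members, and from each list of other genes for those called or, where none was, for up to 2 of smallest p. The members, lists and alternatives were chosen with earlier results of these data known.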

Additional observations from a re-analysis of the deposited data

Results flagged for a closer look

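In groups of 5 arrays, 1 array stood far from the other 4 by Dixon's 95% criterion for 9 of 84 combinations of a gene and a group. Chance alone would mark about 1 in 20 groups. Of the 9, 4 were on the array ST pollutants 1. In the pollutant group, Cyp27b1 stood at -6.19 on array 1 and between -3.72 and -2.74 on the others, Cyp46a1 at -1.67 on array 1 and between 0.09 and 0.66 on the others, Cyp4f39 at -5.15 on array 1 and between -3.21 and -2.66, and Cyp4f18 at -0.12 on array 1, above the others at -0.72 to -0.60. Cyp2a4 stood at 8.2 on pollutant array 3, above 7.99 to 8.01, and Cyp2j6 at 0.55 on pollutant array 5, below 0.85 to 0.93. In the HFHS group, Cyp2d13 stood at 1.5 on array 4, above 1.35 to 1.4, Cyp4f17 at 1.51 on array 5, below 1.74 to 1.82, and Cyp4f40 at -3.59 on array 1, above -4.65 to -4.41. None of these genes was called in a comparison.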

How the results depend on the processing

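The number of the 42 genes called was 1, 1 and 4 in HFHS against ST vehicle, pollutants against ST vehicle and HFHS against pollutants. Both calls against ST vehicle, those of Cyp20a1, were lost (0 and 0 genes called) with normexp background correction, scaling by the median, no filter on dim probes (over all 49 genes), the mean over kept probes, only the compared groups in the model, without slide 1, without ST vehicle 3 and pollutants 2, and without those and HFHS 3 to 5. In the authors' deposited table, fitted the same way, the counts were 0 and 2, and without HFHS 3 to 5 the first was 0. HFHS against pollutants gave 0 without slide 1 and without all 5 of those arrays, 2 without HFHS 3 to 5, 3 with normexp, Cyp2d40 lost, and 3 with the mean over kept probes or without repeat probes, Cyp2u1 lost. Leaving out 1 array at a time gave 0 to 1, 0 to 1 and 4 to 5 genes called. With all 5 arrays out, limma called 0 genes of the whole array in each comparison, with 4, 5 and 6 of the 42 genes at an unadjusted p under 0.05. Leaving out repeat probes turned the sign of Cyp2u1 in HFHS against pollutants, from -0.81 to 0.006. The alternatives on the arrays with Y-linked or kidney transcripts and on repeat probes were chosen after seeing the data.

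The labels do not say what a replicate number marks. By the file headers it equals the slide on all arrays but ST vehicle 3, which lies on slide 5, so in HFHS against pollutants the slide block and the replicate block are the same pairs. Deviations of same-numbered arrays correlated at -0.17 to 0.56, and 4 of 6, 3 of 6 and 6 of 10 arrays correlated best with their own number in the 3 comparisons. With the replicate number as a block, the model gave 0, 0 and 4 called genes, and 53, 44 and 563 genes over the whole array, and with the slide as a block 1, 1 and 4 called genes, so the calls of Cyp20a1 depend on the block to which ST vehicle 3 is given.

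Over all genes, the counts of 134, 192 and 756 fell to 45, 22 and 292 with normexp, 68, 48 and 323 with median scaling, 55, 70 and 361 with no filter, 84 and 67 in the first pair with the slide as a block, 25 and 40 in the first pair with only the compared groups, 1, 3 and 1 without slide 1, 4, 92 and 289 without HFHS 3 to 5, and 34 and 3 in the first pair without ST vehicle 3 and pollutants 2, and rose to 1189 in HFHS against pollutants with array weights. Leaving out 1 array gave 23 to 140, 39 to 175 and 349 to 712. In HFHS against pollutants, 307 genes were higher and 449 lower, and 87 and 205 with normexp, which moved the median of all genes to 0.09 from -0.005. Both calls of Cyp20a1 held (1 and 1 genes called) with quantile normalization, the filter on all 13 arrays, the slide block and array weights. In HFHS against pollutants that filter, which left 38 of the 42 genes, called 5, Cyp2g1 added, where 4.44% of all genes were called. Array weights called 6 of the 42, Cyp2g1 and Cyp2j8 added, where 6.09% of all genes were called. The signs of the called values of Cyp20a1, Cyp2j5, Cyp2d40 and Cyp2j9 held under every alternative run. The causes were not tested.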
